A study of Mus musculus with 2 samples.

Results

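The 6 genes described here encode the mouse receptors for the Fc part of immunoglobulin G (IgG), Fcgr1, Fcgr2b, Fcgr3 and Fcgr4, their signalling subunit Fcer1g, and the neonatal Fc receptor Fcgrt. They were taken by gene symbol from the 32285 genes of each deposited matrix, and all 6 were present in both libraries. The choice went by symbol and not by a measured value, although earlier results of these data were known when it was made. The study enriched CD45-positive cells with magnetic beads and sorted the live ones (negative for the dye 7-AAD) by flow cytometry from Hepa1-6 tumours, a mouse hepatoma line grown in the liver of C57/BL6 mice of WT genotype. The mice had received either an anti-PD-1 antibody or an isotype control antibody, and the cells of each treatment made up 1 library of 10x Genomics 3′ v2 single-cell RNA sequencing. The sources used here give neither the number, sex and age of the mice behind each library nor the clone, IgG subclass, dose and timing of the antibodies. With 1 library per treatment no test between treatments is possible and no p-value is given. Values are described as under anti-PD-1 or under isotype by the library they come from, and the intervals below cover counting error only.

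Fcγ receptors tie antibody to the response of the cell that carries them. The receptors encoded by Fcgr1, Fcgr3 and Fcgr4 are activating: they bind IgG outside the cell and signal through the immunoreceptor tyrosine-based activation motif (ITAM) of the common γ chain encoded by Fcer1g, which they also need to reach the surface. The receptor encoded by Fcgr1 binds monomeric IgG with high affinity, whereas those of Fcgr3 and Fcgr4 mainly bind IgG in complexes. The receptor encoded by Fcgr2b carries an inhibitory motif (ITIM) in its own tail and dampens signals from the activating receptors and, on B cells, from the antigen receptor. The product of Fcgrt pairs with β2-microglobulin (B2m) inside cells and returns internalised IgG to the surface. Macrophages in mouse tumours are known to bind therapeutic IgG through Fcγ receptors, and interferon-gamma is a known inducer of Fcgr1.

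Of the 6 genes, 4 lie together on mouse chromosome 1 in a stretch of 275.7 kb from 170958617 to 171234365 (mm10, GENCODE vM21): Fcgr2b, Fcgr4, Fcgr3 and Fcer1g, in that order. Fcgr4 is on the plus strand there and the other 3 on the minus strand. Fcgr1 spans chr3:96282909-96293969 and Fcgrt chr7:45092990-45103851, both on the minus strand. Sequences near the 3′ end decide which gene a 3′ read is assigned to, so the last 500 bases of every annotated transcript of each gene were searched for 50-base words that also occur in another gene. For Fcgr2b, 33 of 2424 words were shared, all with Fcgr3, and for the other 5 genes none was. Short non-coding genes overlap Fcgr3 (Mir6546) and Fcgr4 (Gm26110) on the same strand, and predicted genes overlap Fcgr2b (Gm38204) and Fcgrt (Gm45669) on the opposite strand.

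All 6 genes were matched in a table of RefSeq promoters (GRCm38.p6), which holds 250 bases before and 50 after each start site. The promoters of Fcgr1, Fcgr4 and Fcgr2b are shown because in monocytes and macrophages Fcgr1 and Fcgr4 were higher and Fcgr2b lower under anti-PD-1 treatment. Capitals mark matches to TTCNNNGAA, the gamma-activated site (GAS) known from interferon-gamma-responsive promoters, and to GAGGAA on either strand, a core bound by PU.1 and other ETS factors. No match to one overlapped a match to the other. The sequences run 5′ to 3′ on the strand of the gene.
Fcgr1, chr3:96293920-96294219, minus strand: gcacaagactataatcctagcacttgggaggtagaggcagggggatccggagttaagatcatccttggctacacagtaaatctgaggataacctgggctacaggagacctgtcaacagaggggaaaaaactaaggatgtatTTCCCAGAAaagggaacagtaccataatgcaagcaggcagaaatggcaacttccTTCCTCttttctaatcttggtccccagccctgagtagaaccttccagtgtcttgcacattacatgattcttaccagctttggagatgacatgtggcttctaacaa
Fcgr4, chr1:171018676-171018975, plus strand: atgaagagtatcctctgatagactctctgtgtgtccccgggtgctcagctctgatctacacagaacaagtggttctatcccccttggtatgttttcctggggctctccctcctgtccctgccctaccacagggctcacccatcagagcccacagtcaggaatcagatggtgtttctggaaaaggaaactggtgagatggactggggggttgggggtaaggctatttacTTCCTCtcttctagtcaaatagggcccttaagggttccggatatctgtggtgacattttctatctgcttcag
Fcgr2b, chr1:170976022-170976321, minus strand: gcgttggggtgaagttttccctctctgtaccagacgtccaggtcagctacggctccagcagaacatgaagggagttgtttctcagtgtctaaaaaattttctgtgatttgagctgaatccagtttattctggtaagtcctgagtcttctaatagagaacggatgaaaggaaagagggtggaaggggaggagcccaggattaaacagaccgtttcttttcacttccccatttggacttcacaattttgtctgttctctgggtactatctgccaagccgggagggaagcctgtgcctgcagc
The Fcgr1 promoter held 1 GAS match, TTCCCAGAA, which began at position -109 with the first transcribed base counted as 0, and 1 ETS match at -55. The Fcgr4 promoter held 1 ETS match at -22 and no GAS match in these letters, and the Fcgr2b promoter held neither. Among the other members, Fcgr3 had 1 ETS match at each of its annotated start sites, and Fcer1g and Fcgrt had neither motif. Of all 32851 mouse promoters in the table, 8.30% held the GAS letters and 28.3% the ETS letters, so a match is a description of the window and not evidence of binding.

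The deposited matrices held 10149 barcodes and 72148493 unique molecular identifiers (UMIs, each standing for 1 captured transcript) under anti-PD-1, and 9683 barcodes and 67520433 UMIs under isotype. Filters and doublet removal kept 9711 and 9278 cells, with medians of 6303 and 6124 UMIs per cell. The libraries shared 140 barcode sequences. Ptprc, which encodes CD45, had a UMI in 76.6% and 75.3% of kept cells, while hepatocyte and Hepa1-6 markers (Alb, Afp and others) summed to under 1 CPM. Cells were placed in 13 classes by marker genes, none of which is an Fc receptor gene. The class names stand for the markers used (classical monocyte-like, neutrophil-like and so on) and are not sorted populations. The gates held 1537 and 1509 cells outside every class. Classical monocytes, macrophages and the intermediate class were pooled and are called monocytes and macrophages together or simply monocytes and macrophages, with 3871 cells under anti-PD-1 and 3417 under isotype. The pool leaves out the non-classical monocytes (505 and 379 cells). Neutrophils numbered 2363 and 2496, and conventional dendritic cells of type 2 (cDC2) 457 and 551. Natural killer (NK) cells, plasmacytoid dendritic cells (pDC), gamma-delta T cells and B cells were few, with 30 to 75 cells per library. These gates and the T cell gate left out any cell with at least 3 markers of neutrophils, classical monocytes or macrophages. Low or absent myeloid transcripts in them are therefore partly set by the gate. The gates of the other dendritic cells had no such rule. The intermediate monocyte-macrophage class (142 and 133 cells), which scored about equally on both marker sets, had none of its markers among its 10 leading genes and is reported by its values only.

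Levels are given as UMIs of a gene per 1000000 UMIs of the class (CPM). A 3′ library captures 1 end per transcript, so these values were not divided by gene length. Neutrophils had a median of 2021 UMIs per cell under anti-PD-1 and 1850 under isotype, against 8069 and 8584 in monocytes and macrophages, so the same CPM means fewer molecules per neutrophil. Fewer cells with a transcript and fewer transcripts per cell cannot be told apart from a CPM alone, and shares of cells at a common depth are given further on.

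Fcgr3, the widely expressed activating receptor, held most of the Fcγ receptor UMIs in neutrophils and in NK cells. It stood at 1233 CPM in anti-PD-1 neutrophils and 1103 CPM in isotype neutrophils, the highest of the 13 classes in either library. The Arg1-high subset of the monocyte and macrophage pool had 1129 and 1117 CPM, the second value above that of isotype neutrophils. The gate of this subset asked for Arg1 together with Spp1 or Hilpda and for no UMI of C1qa, C1qb or C1qc. These C1q genes are markers of the macrophage class. Among neutrophils, the subset with tumour-adapted markers (Ccl3, Ccl4, Cxcl3, Siglecf) had 1463 and 1326 CPM, the mature blood-like subset 1159 and 1146 CPM, and the immature subset (Ngp, Camp, Ltf) 489 and 473 CPM. Per cell the order differed, with 3.06 and 2.54 Fcgr3 UMIs in the tumour-adapted, 2.90 and 2.70 in the mature and 3.32 and 4.16 in the immature subset. The 9 neutrophil markers took 257849 and 288351 CPM of the immature subset and 57425 and 60698 CPM of the tumour-adapted one. Classical monocytes had 843 and 837 CPM, macrophages 709 and 737 CPM, and non-classical monocytes 541 and 523 CPM. The values of the 2 libraries for one class did not overlap those of the next class in this order, down to type 1 conventional dendritic cells (cDC1). cDC2 had 235 and 302 CPM and cDC1 had 135 and 114 CPM. NK cells had 71.1 and 66.6 CPM from 38 and 41 UMIs, while Fcgr1 and Fcgr4 had 0 UMIs in NK cells of both libraries, with limits of 5.61 and 4.87 CPM that 3 counts allow. T cells had 12 Fcgr3 UMIs in each library, 2.54 and 3.73 CPM.

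Fcgr1, the high-affinity receptor, was found in monocytes, macrophages and dendritic cells and was close to absent from neutrophils. Classical monocytes had 199.9 CPM under anti-PD-1 and 145 CPM under isotype, and macrophages 195 and 130 CPM. The intermediate class had 227 and 156 CPM, and these 3 classes overlapped one another between libraries. Non-classical monocytes had 106 and 66.3 CPM, which overlapped the 76.2 and 60.7 CPM of cDC2. Neutrophils had 4.93 and 3.57 CPM from 27 and 20 UMIs in the whole class. No Fcgr1 UMI was seen in pDC, NK, gamma-delta T or B cells of either library, whose gates left out cells with myeloid markers.

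Fcgr4, a receptor gene of mouse myeloid cells, was shared by macrophages, monocytes and neutrophils. Macrophages had 232 CPM under anti-PD-1 and 139.8 CPM under isotype. Non-classical monocytes had 167 and 116 CPM, neutrophils 154 and 129 CPM, and classical monocytes 109 and 83.3 CPM, and the first 3 of these classes overlapped between libraries. Arg1-high cells of the pool had 117 and 111 CPM, below the macrophage class and above classical monocytes in both libraries. C1q transcripts were absent from these cells by their gate, while C1q genes are markers of the macrophage class. cDC2 had 34.8 and 32.9 CPM, and migratory dendritic cells had 4.93 and 7.10 CPM from 9 and 14 UMIs.

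Fcgr2b, the inhibitory receptor, stood near Fcgr3 in CPM in monocytes and macrophages and was far lower in neutrophils. The Arg1-high cells of the pool had the highest values, 1293 CPM under anti-PD-1 and 1339 CPM under isotype. Classical monocytes had 849 and 945 CPM, macrophages 784 and 892 CPM, non-classical monocytes 622 and 708 CPM, and cDC2 280.1 and 406 CPM. Neutrophils had 183 and 188 CPM, cDC1 142 and 126 CPM, and migratory dendritic cells 111 and 87.2 CPM. B cells, in which Fcgr2b is known as the main Fcγ receptor, had 165 and 98.5 CPM from 28 and 22 UMIs, and in anti-PD-1 B cells no UMI of Fcgr1, Fcgr3 or Fcgr4 was seen. NK cells had 2 UMIs of Fcgr2b in each library.

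Fcer1g, the shared signalling subunit, was the most abundant of the 6 genes in every class of myeloid cell. It ranged between 3524 and 3957 CPM in the 4 monocyte and macrophage classes of the anti-PD-1 library, non-classical monocytes included, and between 3364 and 3550 CPM in those of the isotype library. Neutrophils had 3646 and 3604 CPM, and these 5 classes overlapped between libraries. A neutrophil held on average 8.46 and 8.09 Fcer1g UMIs and a monocyte or macrophage 30.4 and 30.3. cDC2 had 1865 and 1989 CPM. Fcer1g was also high where Fcγ receptor genes were low or absent: NK cells had 1463 and 1461 CPM, and pDC 995 and 904 CPM. In NK cells Fcer1g is also known to pair with the receptor encoded by Ncr1, and there were 20.6 and 22.0 Fcer1g UMIs for each UMI of an activating Fcγ receptor gene, against 3.14 and 3.21 in monocytes and macrophages and 2.62 and 2.92 in neutrophils.

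Fcgrt was instead highest in pDC, cDC1 and cDC2. pDC had 152 CPM under anti-PD-1 and 83.6 CPM under isotype from 43 and 27 UMIs, cDC1 had 105 and 108 CPM, and cDC2 had 107 and 83.4 CPM, and these 3 classes overlapped. Non-classical monocytes had 35.7 and 34.6 CPM and macrophages 34.3 and 30.02 CPM. Migratory dendritic cells had 24.1 and 33.0 CPM, near macrophages and below the other dendritic cell classes. Arg1-high cells had 10.6 and 10.02 CPM. Neutrophils had 3 and 10 UMIs in all, 0.547 and 1.78 CPM.

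**Figure D1:**
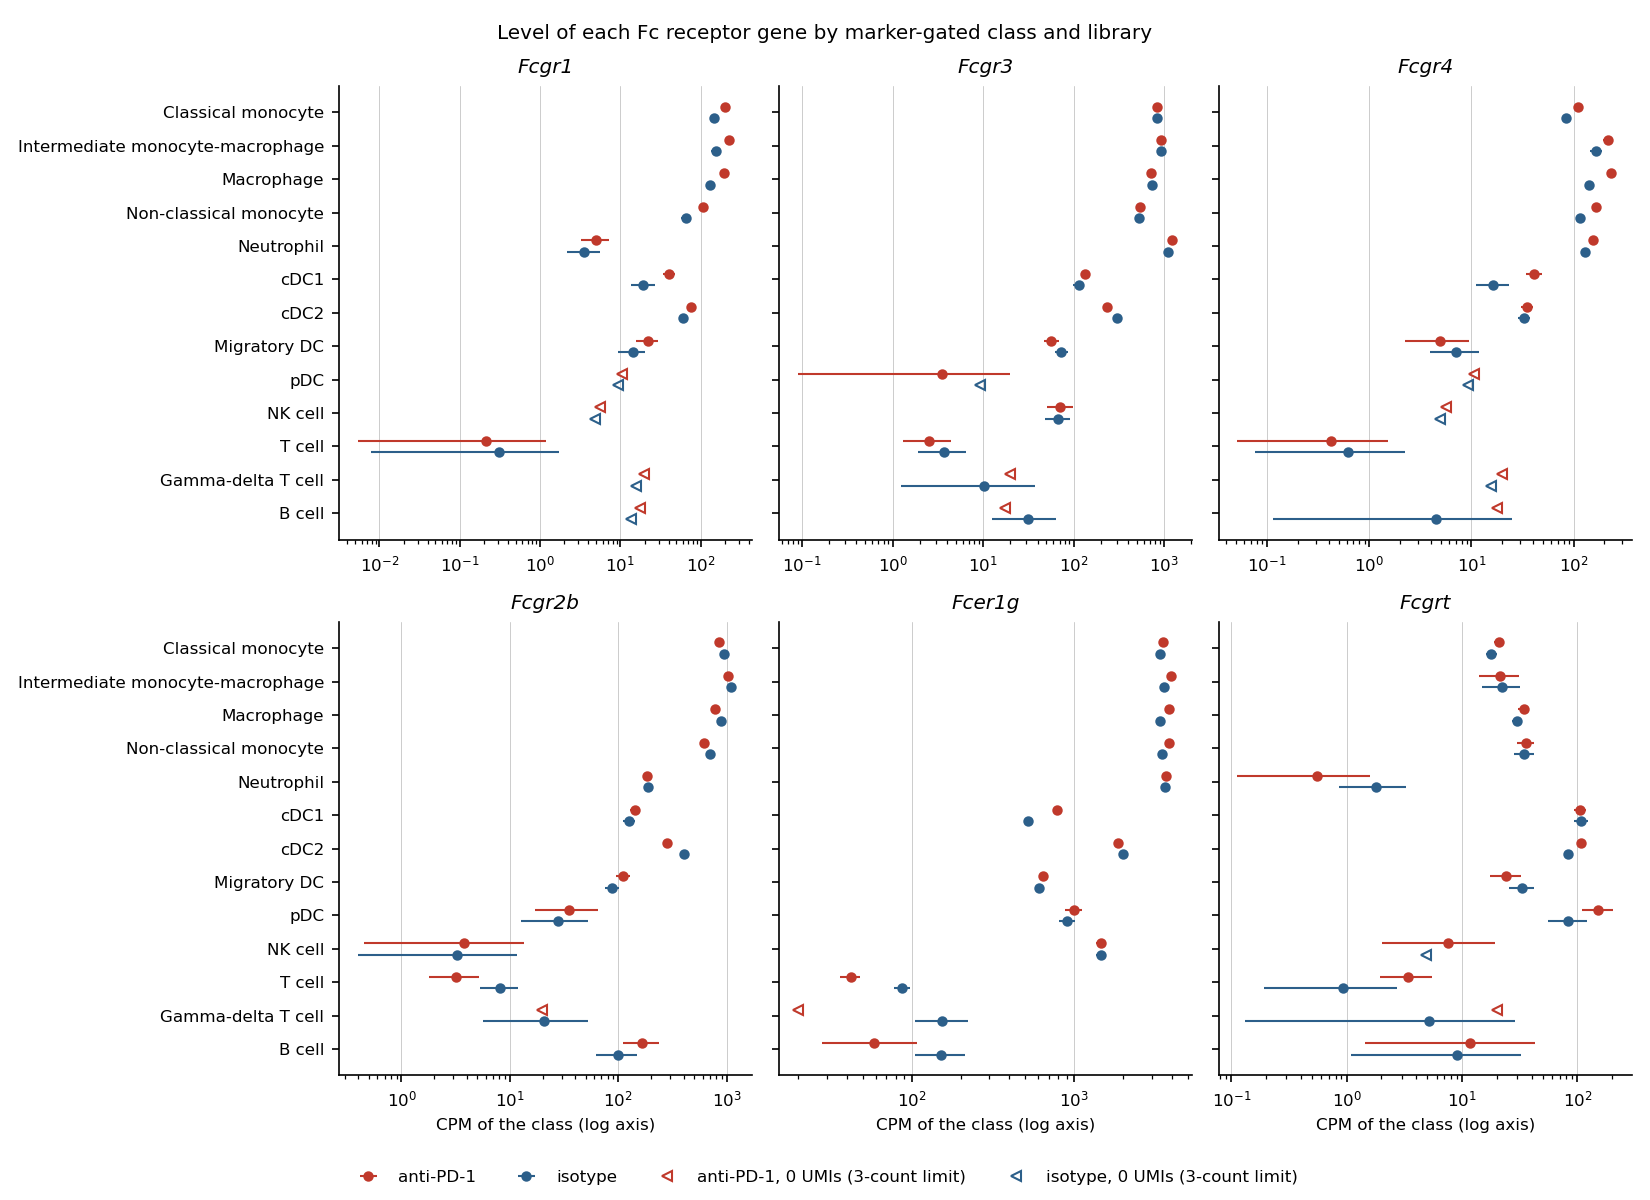
Level of each gene by marker-gated class (rows) under anti-PD-1 (red, upper point) and under isotype (blue, lower point), in CPM on a log axis, with exact 95% counting intervals; open triangles stand for 0 UMIs and are drawn at the CPM that 3 counts would give. Fcgr3 peaked in neutrophils (1233 and 1103 CPM), Fcgr1 was near its floor there (4.93 and 3.57 CPM), and Fcgrt was highest in pDC, cDC1 and cDC2.

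The pattern over classes was compared between genes as Pearson's r of log2(CPM + 1) over the 13 classes, which share 1 library and differ in depth, and is a description only. The 3 genes closest to each member among 8411 with at least 20 CPM in a class were ranked under isotype. For Fcgr3 they were Itgam (r = 0.92 under anti-PD-1 and 0.96 under isotype), Osm (0.96 and 0.96) and Pilrb1 (0.95 and 0.93). For Fcgr1 they were Rnf217 (0.86 and 1.00), Pid1 (0.99 and 0.99) and Mmp19 (0.99 and 0.99), and for Fcgr4 Klra2 (0.98 and 0.99), Scamp1 (0.95 and 0.98) and Soat1 (0.91 and 0.98). For Fcgr2b they were F10 (0.94 and 0.96), Msr1 (0.82 and 0.96) and Csf1r (0.84 and 0.95). Fcer1g was closest to Tyrobp (0.99 and 0.95), which encodes the related ITAM adapter DAP12, followed by Trf and Pxn. Fcgrt was closest to H2-DMb1 (0.89 and 0.94), Rnase6 (0.95 and 0.92) and H2-Ab1 (0.87 and 0.92). H2-DMb1 and H2-Ab1 belong to the class II antigen presentation pathway. Among the members, the highest r under isotype was that of Fcgr4 with Fcgr2b (0.82 under anti-PD-1 and 0.93 under isotype), and the lowest that of Fcgr3 with Fcgrt (0.25 and 0.10).

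Activating genes held most of the Fcγ receptor transcripts in neutrophils and NK cells, about even shares with Fcgr2b in monocytes, macrophages and conventional dendritic cells, and few in B cells and pDC. Of the UMIs of Fcgr1, Fcgr2b, Fcgr3 and Fcgr4 together, the 3 activating genes held 88.4% (95% Clopper-Pearson interval 87.7 to 89.03) in anti-PD-1 neutrophils and 86.8% (86.1 to 87.6) in isotype neutrophils. In NK cells they held 38 of 40 and 41 of 43 UMIs, and all of the 38 and 41 were Fcgr3. In B cells they held 0 of 28 UMIs under anti-PD-1, with an upper interval limit of 12.3%, and 8 of 30 under isotype, and in pDC 1 of 11 and 0 of 9. In monocytes and macrophages they held 58.0% (57.6 to 58.4) under anti-PD-1 and 53.0% (52.6 to 53.4) under isotype. Fcgr3 made up 40.4% and 40.5% of the receptor UMIs there, so the difference lay in Fcgr1 (10.01% and 7.05%), Fcgr4 (7.57% and 5.44%) and Fcgr2b (41.99% and 47.0%). The activating share was 59.2% in anti-PD-1 macrophages and 53.0% in isotype macrophages, 57.6% and 53.0% in classical monocytes, 56.7% and 49.9% in non-classical monocytes, and 55.3% and 49.3% in cDC2. The intervals of the libraries did not overlap in any of these 4 classes. In cDC1 the shares were 60.4% (57.4 to 63.3) and 54.2% (49.8 to 58.5), with overlapping intervals. In Arg1-high cells the shares were 52.9% (52.1 to 53.7) and 50.9% (50.2 to 51.7). Migratory dendritic cells had 43.1% (37.9 to 48.4) under anti-PD-1 and 51.96% (46.6 to 57.2) under isotype, with overlapping intervals.

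**Figure D2:**
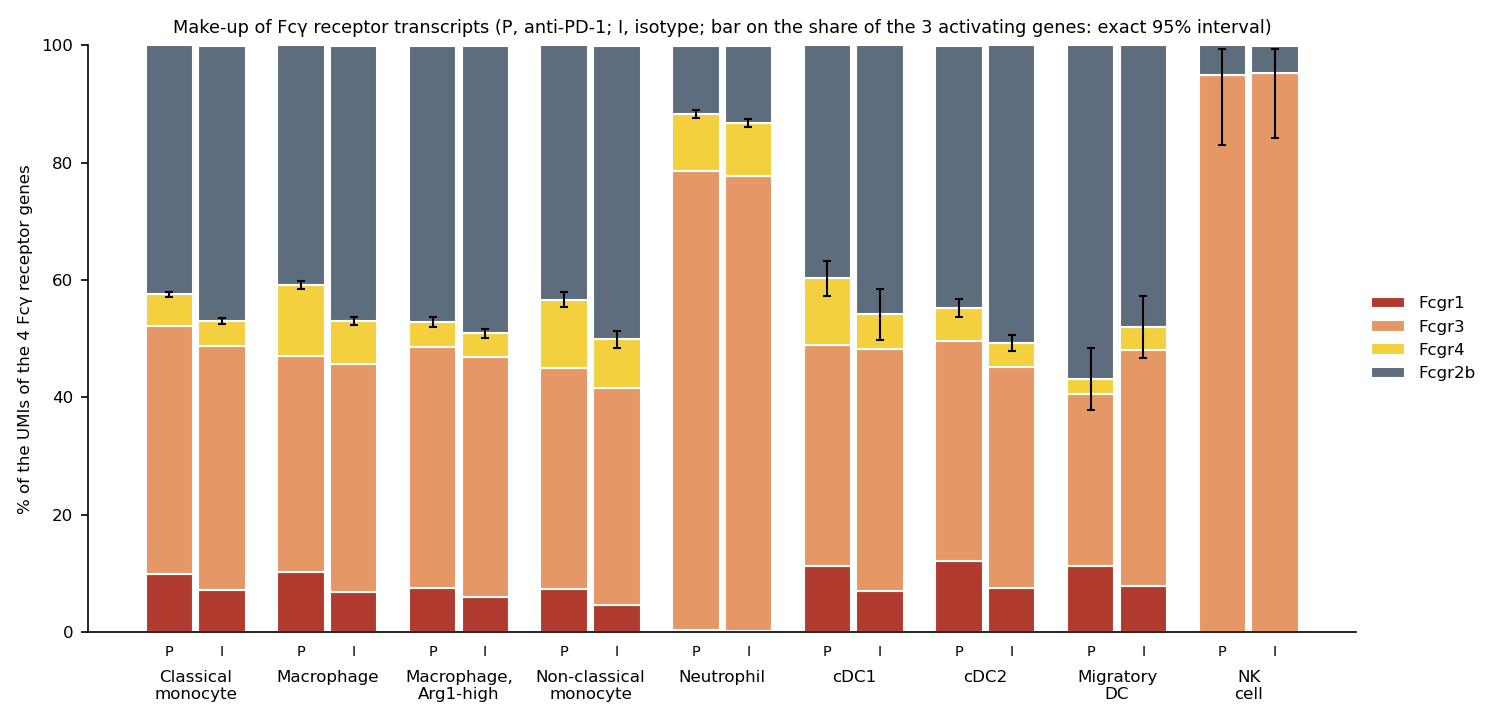
Share of each gene (stacked colours) among the UMIs of the 4 Fcγ receptor genes, in percent, by class, with the anti-PD-1 library (P) left of the isotype library (I); the black bar is the exact 95% interval of the share of Fcgr1, Fcgr3 and Fcgr4 together. Neutrophils (88.4% and 86.8% activating) and NK cells stand apart from monocytes, macrophages, cDC1, cDC2 and migratory dendritic cells, in which Fcgr2b holds between 39.6% and 56.9%.

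To compare single cells at one depth, each cell was thinned at random to 1000 UMIs, which left out 15 anti-PD-1 and 38 isotype monocytes and macrophages and 227 and 328 neutrophils with fewer UMIs. Fcer1g had a UMI in 3700 of 3856 anti-PD-1 and 3210 of 3379 isotype monocytes and macrophages and in 92.7% and 94.2% of neutrophils. T cells, which largely lack it, had 3.30% and 5.20%. Fcgr3 had a UMI in 51.5% and 51.0% of monocytes and macrophages, in 63.4% and 59.5% of neutrophils, and in 0 of 455 anti-PD-1 T cells, which allows a share of cells with a UMI at this depth of up to 0.659% by the 3-count limit, and 0.248% of isotype T cells. Without thinning, the Fcgr3 shares were 93.75% and 94.001% in monocytes and macrophages and 78.4% and 73.8% in neutrophils, the reverse order, since a neutrophil carries fewer UMIs. Fcgr1 had a UMI in 17.7% (16.5 to 18.9) of anti-PD-1 and 12.3% (11.2 to 13.4) of isotype monocytes and macrophages, and Fcgr4 in 13.5% (12.4 to 14.6) and 10.98% (9.94 to 12.1). Fcgr2b had a UMI in 51.3% (49.7 to 52.9) and 56.3% (54.6 to 57.97).

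At the same depth, 30.3% (28.8 to 31.7) of anti-PD-1 monocytes and macrophages had a UMI of an activating receptor gene and none of Fcgr2b, against 24.1% (22.7 to 25.6) of isotype cells. The reverse combination, Fcgr2b alone, was seen in 16.5% (15.4 to 17.7) and 19.7% (18.4 to 21.1), and both kinds in 34.8% and 36.5%. Within macrophages, 31.2% and 24.02% had an activating gene without Fcgr2b and 15.96% and 21.1% had Fcgr2b alone. Neutrophils had an activating gene without Fcgr2b in 57.9% and 54.3% of cells. A cell without a UMI at this depth may still express the gene.

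**Figure D3:**
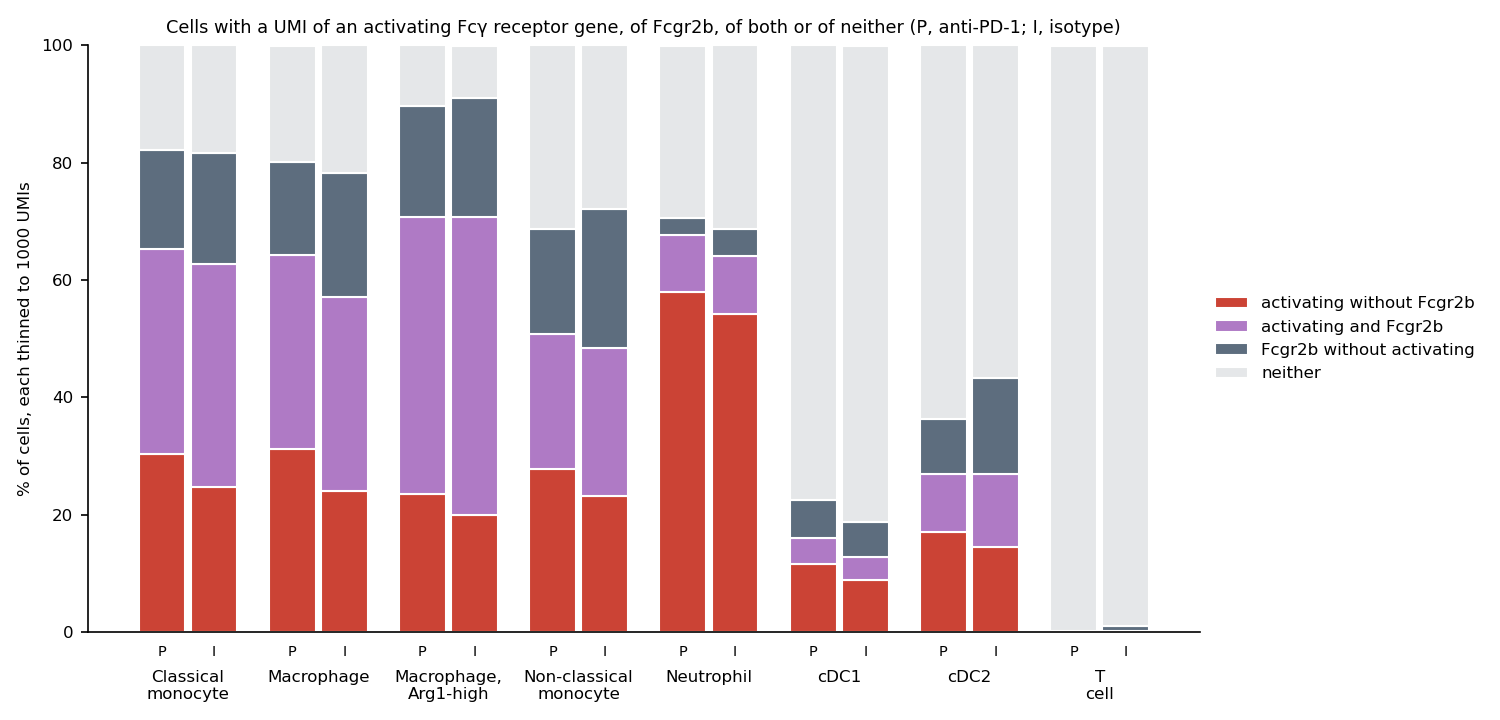
Share of cells, in percent, with a UMI of any activating Fcγ receptor gene, of Fcgr2b, of both or of neither after each cell was thinned to 1000 UMIs, by class, with the anti-PD-1 library (P) left of the isotype library (I). In macrophages the red part (activating gene without Fcgr2b) is 31.2% under anti-PD-1 and 24.02% under isotype, and T cells are nearly all without either.

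Between the libraries, 51 of the 78 pairs of gene and class had at least 50 UMIs over both libraries, and 10 of them differed by more than 1.5-fold, 9 higher and 1 lower under anti-PD-1. Over all genes with that many UMIs, the share past 1.5-fold in either direction was 3.66% in monocytes and macrophages together, 3.93% in classical monocytes, 4.5% in macrophages, 5.8% in non-classical monocytes, 10.3% in the intermediate class, 6.34% in neutrophils, 6.27% in cDC2, 9.84% in cDC1, 7.19% in migratory dendritic cells, 18.5% in pDC, 11.7% in NK cells, 9.6% in T cells and 25.9% in B cells. The log2 ratio of anti-PD-1 over isotype was above 0 in 7 of 7 measured classes for Fcgr1, except that it became -0.25 in cDC1 with classes taken from clusters and -0.92 in migratory dendritic cells after thinning. For Fcgr4 it was above 0 in 7 of 7, except that the cDC2 ratio (0.08, interval -0.19 to 0.36) became -0.02 under TMM scaling, and with classes from clusters it was 0.71, past 1.5-fold. It was below 0 in 6 of 9 classes for Fcgr2b. Most measured genes also had a ratio above 0: 6474 of 10043 in classical monocytes and 2981 of 4801 in the intermediate class. The counts were 5667 of 9376 in macrophages, 4486 of 7262 in non-classical monocytes and 3956 of 6487 in neutrophils. In dendritic cells they were 4516 of 6909 for cDC1, 5870 of 8705 for cDC2 and 3249 of 5941 for the migratory class. B cells had 546 of 1020. All classes of a library come from the same cells of the same mice, so they are not independent of one another.

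Fcgr1 was higher under anti-PD-1 across monocytes and macrophages, with 199.5 CPM against 139.8 CPM under isotype and a log2 ratio of 0.51 (0.46 to 0.57). The ratio was 0.46 (0.39 to 0.53) in classical monocytes, 0.59 (0.49 to 0.69) in macrophages, 0.67 (0.43 to 0.92) in non-classical monocytes and 0.33 (0.13 to 0.52) in cDC2. Macrophages and non-classical monocytes passed 1.5-fold, where 3.1% and 4.38% of all measured genes were that much higher. The macrophage ratio lay at the limit: it was between 0.52 and 0.58, under the fold, in 5 of 10 alternatives, TMM scaling and classes from clusters among them, and 0.85 after thinning. The non-classical ratio was under the fold in 3 of 10, with 0.53 for CPM averaged over cells, 0.42 with classes from clusters and 0.30 after thinning. The cDC2 ratio passed the fold at 0.79 with classes from clusters, and that of the intermediate class, 0.54, lay between 0.59 and 0.66, past the fold, in 5 of 9. Arg1-high cells had 205 and 162 CPM, a ratio of 0.34 (0.21 to 0.47).

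Fcgr4 was 232 CPM in anti-PD-1 macrophages against 139.8 CPM in isotype macrophages, a log2 ratio of 0.73 (0.64 to 0.82) and past 1.5-fold. It was under the fold with classes from clusters, 0.45, and after thinning, 0.58. The ratio was 0.52 (0.33 to 0.71) in non-classical monocytes, 0.39 (0.30 to 0.49) in classical monocytes and 0.26 (0.11 to 0.40) in neutrophils. Arg1-high cells had 117 and 111 CPM, a ratio of 0.07 with an interval from -0.09 to 0.23. The ratio became 0.15 in non-classical monocytes and 0.63 in classical monocytes with classes from clusters, the second past the fold, and 0.14 in both after thinning.

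Fcgr3 differed little between the libraries. The log2 ratio was 0.00 (-0.02 to 0.03) in monocytes and macrophages together, -0.06 (-0.10 to -0.01) in macrophages and 0.16 (0.11 to 0.21) in neutrophils. In cDC2 it was -0.36 (-0.46 to -0.26). Neutrophil markers, in cells gated as classical monocytes, summed to 1452 CPM under anti-PD-1 and 4682 CPM under isotype for all 9 markers, none at 0, and the part of this in the monocyte values of the 6 genes was not tested.

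Fcgr2b was lower under anti-PD-1 in the large myeloid classes, by less than 1.5-fold. The log2 ratio was -0.16 (-0.18 to -0.13) in monocytes and macrophages, with -0.15 (-0.18 to -0.12) in classical monocytes, -0.19 (-0.23 to -0.14) in macrophages and -0.19 (-0.27 to -0.10) in non-classical monocytes. It was -0.03 (-0.16 to 0.09) in neutrophils. In cDC2 it was -0.54 (-0.62 to -0.45), the lowest of the 9 measured classes. TMM scaling took the cDC2 ratio to -0.64, past 1.5-fold. In the cDC2 gate, the 8 macrophage markers summed to 338 CPM under anti-PD-1 and 500.2 CPM under isotype, the 6 classical monocyte markers to 1250.2 and 1022 CPM and the 9 neutrophil markers to 1945 and 1784 CPM, with no marker at 0, and the part of these in the cDC2 values was not tested. Migratory dendritic cells had a ratio of 0.34 (0.04 to 0.65) for Fcgr2b.

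Fcer1g differed by less than 1.5-fold between the libraries in the monocyte, macrophage and neutrophil classes, with ratios of 0.07 (0.05 to 0.08) in classical monocytes, 0.17 (0.15 to 0.20) in macrophages, 0.14 (0.11 to 0.18) in non-classical monocytes and 0.02 (-0.01 to 0.04) in neutrophils. Fcgrt had a ratio of 0.35 (0.19 to 0.52) in cDC2 and -0.03 (-0.29 to 0.23) in cDC1. In pDC it passed 1.5-fold at 0.86 (0.13 to 1.61), on 43 and 27 UMIs from 31 and 43 cells, and 11.5% of all measured genes in pDC were that much higher. After thinning the pDC ratio was 0.21, under the fold.

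**Figure D4:**
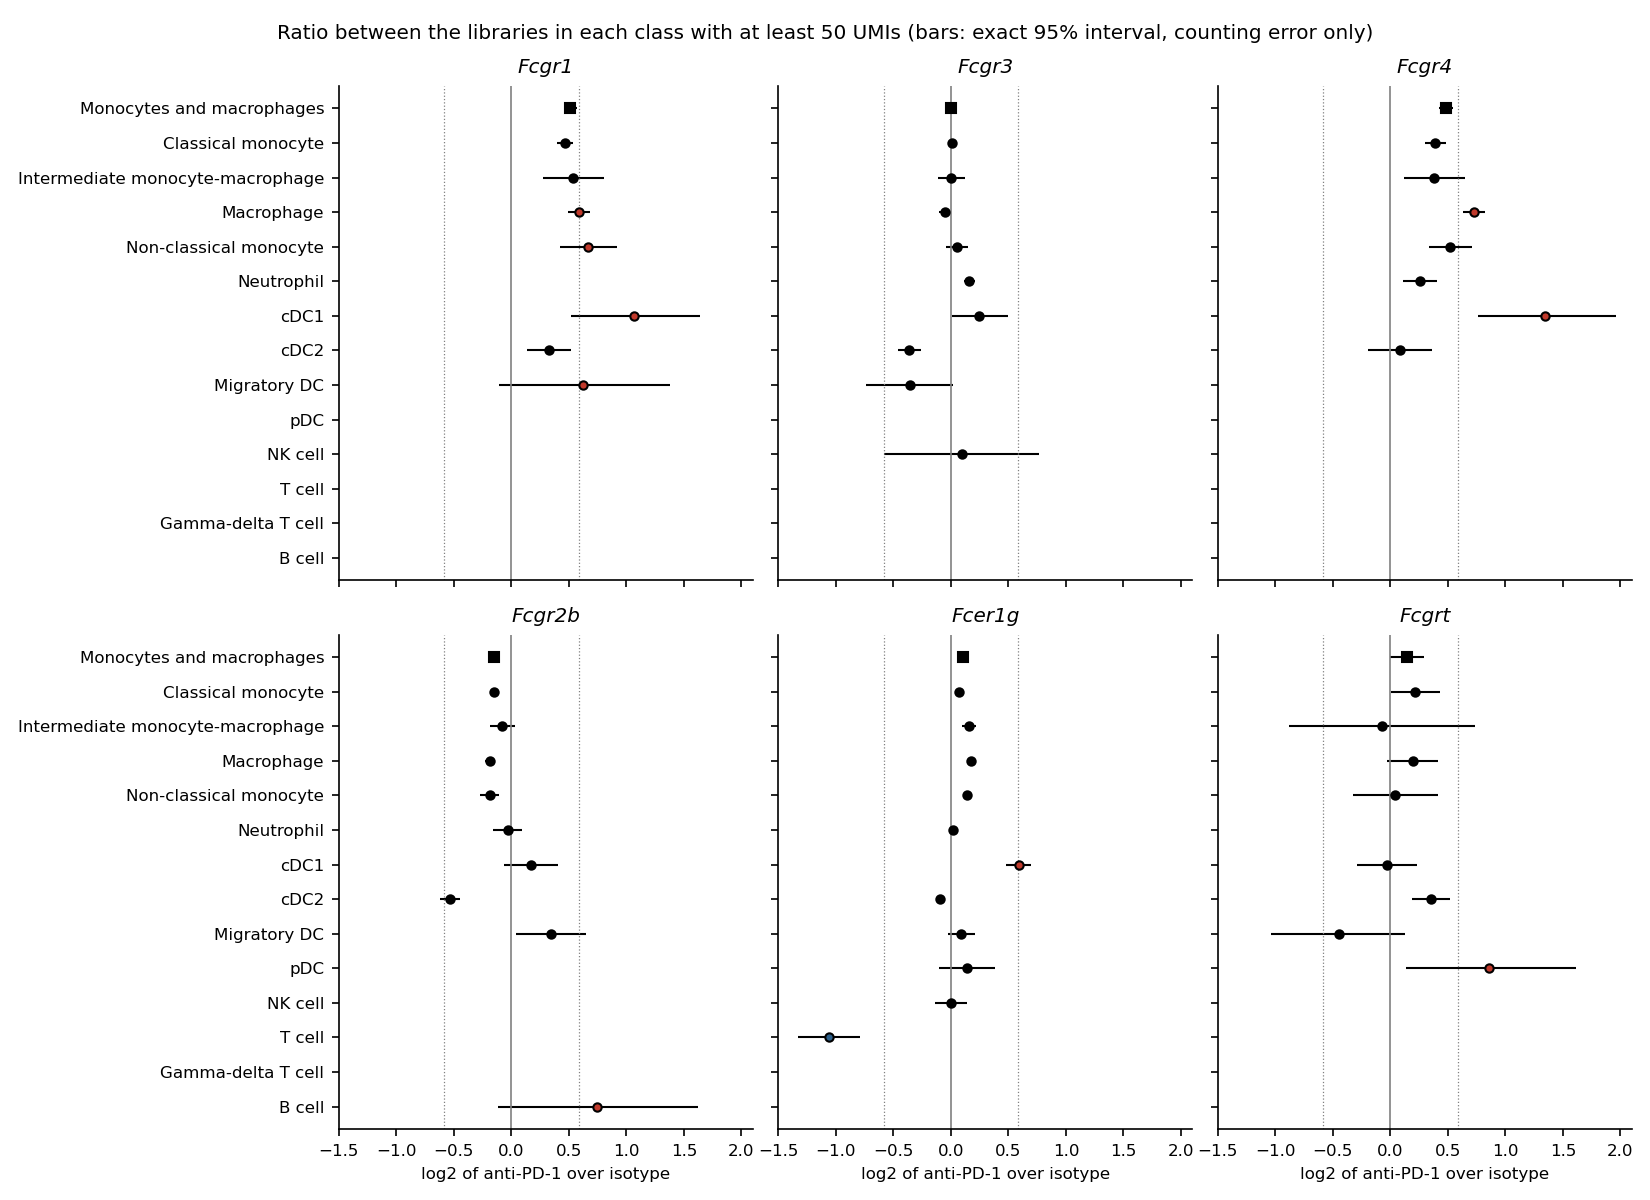
log2 ratio of anti-PD-1 over isotype (x axis) for each gene in each class with at least 50 UMIs over both libraries, with exact 95% counting intervals; squares are the pooled monocytes and macrophages, dotted lines mark 1.5-fold, and red and blue points lie past it. Fcgr1 and Fcgr4 points all lie right of 0 (TMM scaling takes the Fcgr4 point of cDC2 to -0.02), and the Fcgr2b points of the monocyte and macrophage classes lie left of it.

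The other calls were in cDC1, T cells, B cells and migratory dendritic cells. In cDC1, Fcgr1 (40.5 CPM under anti-PD-1 against 19.4 CPM under isotype), Fcgr4 (41.1 and 16.2 CPM) and Fcer1g (785 and 522 CPM) passed 1.5-fold, where 8.15% of all measured genes were that much higher. In the same gate Lyz2, a lysozyme gene of monocytes, macrophages and neutrophils, stood at 1731 CPM under anti-PD-1 and 765 CPM under isotype, and the 6 classical monocyte markers summed to 1435 and 940.0 CPM. The 8 macrophage markers summed to 468 and 527 CPM, with 0 and 1 of them at 0, and the 9 neutrophil markers to 467 and 632 CPM. The part of these in the cDC1 values was not tested. With cDC1 taken from clusters, the Fcgr1 ratio was -0.25 in place of 1.06, that of Fcer1g -0.25 in place of 0.59 and that of Fcgr4 0.70 in place of 1.34. TMM scaling took the Fcer1g ratio to 0.49, under the fold.

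In T cells Fcer1g was 42.1 CPM under anti-PD-1 against 87.6 CPM under isotype, a ratio of -1.06 (-1.33 to -0.79), and 3.18% of all measured genes in T cells were past 1.5-fold lower. CD8 T cells had 28.1 and 123 CPM from 45 and 82 UMIs, and a single cell held 44 of the 82. Lyz2 stood at 7.19 CPM and 57.2 CPM in T cells. The 6 classical monocyte markers summed to 736 and 643 CPM with 2 and 0 of them at 0, and the 8 macrophage markers to 5.92 and 6.84 CPM. NK cells had 666 and 666 CPM of the same monocyte markers with Lyz2 at 5.61 and 9.74 CPM. On its own the monocyte marker sum is thus no measure of monocyte RNA in these classes. The part of Lyz2 and these markers in the T cell values was not tested. The Fcer1g ratio was 0.49 with T cells taken from clusters and -0.41, under the fold, with doublet calls kept. B cells passed 1.5-fold for Fcgr2b with a ratio of 0.75 whose interval, -0.11 to 1.62, includes 0, where 14.4% of all measured genes were that much higher; it was 0.17 after thinning and -0.21 with classes from clusters. In gamma-delta T cells Fcer1g had 0 UMIs under anti-PD-1 and 30 under isotype, 26 of them in 1 cell. Migratory dendritic cells passed 1.5-fold for Fcgr1 at 0.63 (-0.11 to 1.38), on 40 and 28 UMIs, where 3.59% of all measured genes were that much higher. This ratio was under the fold with doublet calls kept (0.55), a stricter gate (0.54) and classes from clusters (0.05).

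The relation of the receptor genes to the interferon-gamma response was described in monocytes and macrophages. Each cell was placed in 1 of 4 bands of equal size by the summed CPM of 20 genes of that response (Gbp2, Irf1, Cxcl9 and others, no member among them), with limits at 288, 700.5 and 1912 CPM. The top band held 30.9% of anti-PD-1 cells and 18.3% of isotype cells, and the lowest band 21.5% and 28.9%. Fcgr1 increased over the bands in both libraries, with 142, 172, 192 and 261 CPM under anti-PD-1 and 106, 121, 156 and 199 CPM under isotype. Fcgr4 had 65.7, 87.8, 120.03 and 275 CPM under anti-PD-1 and 76.8, 88.8, 114 and 175 CPM under isotype. The top band was 4.19-fold above the lowest for Fcgr4 under anti-PD-1 and 2.28-fold under isotype, and 1.84-fold and 1.88-fold for Fcgr1. Fcgr2b ran the other way, with 933 CPM in the lowest and 687 CPM in the top band of the anti-PD-1 library and 975 and 785 CPM in those of the isotype library. Fcgr3 had 847 and 714 CPM in these bands of the anti-PD-1 library and 851 and 687 CPM in those of the isotype library.

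Within bands, the difference between the libraries had a different form for each gene. For Fcgr1 the log2 ratio was 0.42 (0.29 to 0.56) in the lowest band, 0.51 (0.39 to 0.63) in the second, 0.31 (0.20 to 0.42) in the third and 0.39 (0.29 to 0.50) in the top band, above 0 beyond counting error in each. For Fcgr4 the ratios were -0.22 (-0.40 to -0.05), -0.02 (-0.17 to 0.14), 0.07 (-0.06 to 0.20) and 0.65 (0.55 to 0.76), above 0 beyond counting error in the top band alone. The summed list itself differed there, with 6143 CPM under anti-PD-1 and 4983 CPM under isotype, against ratios of 0.02 to 0.04 in the lower 3 bands. When the top band was divided at its median, a division added after the data were seen, the list was nearly level in the lower part (2864 and 2807 CPM) and Fcgr4 had 197 and 148 CPM there, a ratio of 0.41 (0.25 to 0.57). In macrophages alone, Fcgr4 had 371 CPM in the top band of the anti-PD-1 library and 201 CPM in that of the isotype library, a ratio of 0.89 (0.73 to 1.04), and in the third band 0.37 (0.18 to 0.57). In classical monocytes alone the top band had 208 and 146 CPM, a ratio of 0.51 (0.35 to 0.67), and the third band a ratio of -0.07 (-0.27 to 0.13). In the lowest band the Fcgr4 ratio was -0.15 (-0.41 to 0.10) in classical monocytes and -0.03 (-0.30 to 0.23) in macrophages. The lower value of the pooled cells in that band was thus beyond counting error in neither class alone. Fcgr2b ratios lay between -0.19 and -0.06 over the bands, and those of Fcgr3 between -0.01 and 0.08.

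**Figure D5:**
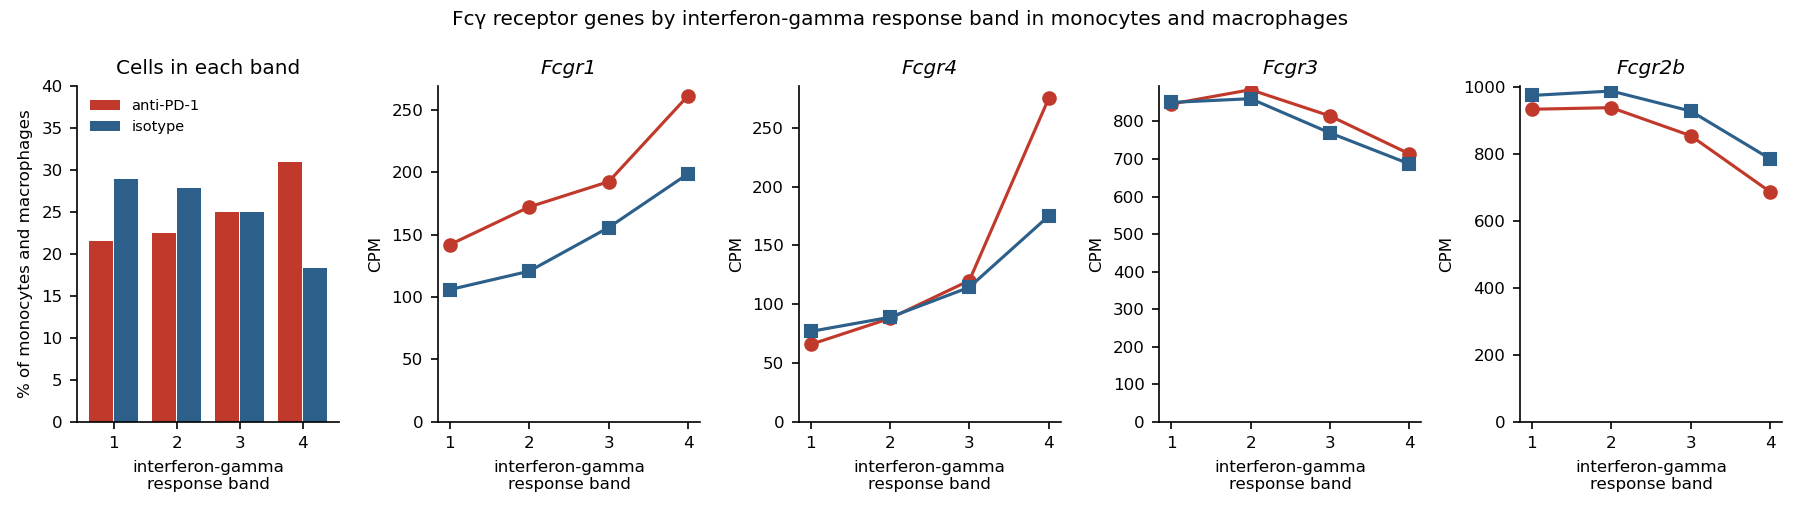
Share of monocytes and macrophages in each of 4 bands of the summed interferon-gamma response (left, percent) and CPM of 4 Fcγ receptor genes by band, under anti-PD-1 (red) and the isotype library (blue). The Fcgr1 lines run apart in every band, the Fcgr4 lines part in the top band (275 and 175 CPM), and Fcgr2b is lower in the top band of both libraries.

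The genes that act with these receptors were taken from lists of pathway members, in monocytes and macrophages unless stated. The median log2 ratio of all 10769 measured genes there was 0.06, with 7035 of them above 0, and TMM scaling shifted each ratio by -0.06. Of 14 kinases and adapters that act below the ITAM, 13 had a ratio above 0 (12 under TMM) with a median of 0.15, and none passed 1.5-fold. Lyn, a Src family kinase that phosphorylates ITAMs, had 342 CPM under anti-PD-1 and 288 CPM under isotype (0.25, interval 0.21 to 0.29), and Syk, the kinase that docks on the phosphorylated ITAM, 210 and 197 CPM (0.09, interval 0.04 to 0.14). In neutrophils 13 of 14 were above 0 (12 under TMM) with a median of 0.25 (0.19 under TMM), beside 3956 of 6487 and 0.06 over all measured genes. Of 6 phosphatases and adapters that act below the ITIM, 6 were above 0 (5 under TMM) with a median of 0.12, and none passed the fold. Inpp5d, the lipid phosphatase SHIP1 recruited by the Fcgr2b product, had 76.7 and 72.0 CPM (0.09, interval 0.01 to 0.17).

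Of the other adapters listed, Tyrobp had 3602 and 3468 CPM (0.05, interval 0.04 to 0.07), a ratio that was below 0 under TMM, and Hcst, whose product DAP10 carries a motif for PI3-kinase and no ITAM, 47.6 and 58.3 CPM (-0.29, interval -0.39 to -0.19), while Cd247 was not measured. Among receptors that signal through Fcer1g, Clec4e had 543 and 491 CPM, Clec4d 146 and 124 CPM and Clec4n 449.6 and 469 CPM. B2m, the partner of Fcgrt, had 2255 and 1954 CPM (0.21, interval 0.19 to 0.22). Of 12 other Fc receptor genes and relatives, 4 were measured, led by Fcrlb with 15.5 and 16.6 CPM, and none passed the fold. Of 8 immunoglobulin chain genes, Ighm alone was measured (26.3 and 23.7 CPM). Of 6 known regulators of the Fcγ receptor genes, 6 were above 0 and 2 passed the fold, among them Irf1 with 203 and 123 CPM (0.72). Irf8 had 189.7 and 141 CPM (0.43) and Spi1, which encodes PU.1, 420.3 and 362 CPM (0.21). Of the 20 genes of the interferon-gamma response, which include Irf1, 16 were past 1.5-fold higher with a median of 0.91, where 1.97% of all measured genes were.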

How the data were processed

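Live CD45-positive cells isolated from tumours were analysed, in 1 anti-PD-1 and 1 isotype library (10x Genomics 3′ v2). The authors deposited raw UMI counts per gene and barcode with no normalization, made with Cell Ranger 5.0.1 per the file headers. Cell Ranger 2.1.1 and mm10 are named in the submitters' processing notes, and the sources used here give no counting settings. Dense tables of the same counts differed from the matrices in 0 values of the 6 genes and were not used.

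Barcodes were kept from 500 UMIs and 200 genes upward if no more than 10% of UMIs were mitochondrial, and doublets scored by scrublet (scanpy 1.11.5) above 0.25 were removed, 303 and 288 barcodes. A cell joined the class with the highest mean marker z-score, if at least 3 markers were detected and it led the next class by 0.2. Lymphoid cells and pDC that also had at least 3 markers of neutrophils, classical monocytes or macrophages were left outside the classes. Gate thresholds and the doublet limit were settled after looking at the data. Each class was summed within its library and scaled to its total (CPM). Ratios carry exact conditional binomial 95% intervals and shares Clopper-Pearson 95% intervals. A difference was called past 1.5-fold with at least 50 UMIs over both libraries. The ratio intervals and the 1.5-fold call were tested on simulated class sums with counting error only, and the other steps were not simulated. The members, lists and markers were chosen with earlier results of these data known. Named genes were the members, the lists and the 3 genes most like each member. Alternatives were filters, doublets, scaling (edgeR 4.0.16 TMM), thinning, the top cell left out, clusters (members left out) as classes and a stricter gate. Values of some list genes are not reported here.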

Additional observations from a re-analysis of the deposited data

Results flagged for a closer look

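Some genes had a log2 ratio of anti-PD-1 over isotype whose counting interval lay above 0 in 1 class and below 0 in another, and no test compared the classes, so each such difference is untested. Fcgr3 had 0.25 in cDC1 and -0.36 in cDC2. Fcgr2b had 0.34 in migratory dendritic cells and -0.54 in cDC2. Fcer1g had 0.59 in cDC1 and -1.06 in T cells. With classes from clusters, the Fcgr3 ratio in cDC1 was -0.41, that of Fcgr2b in migratory dendritic cells -0.10 (-0.058 with doublet calls kept), that of Fcer1g in cDC1 -0.25 and that of Fcer1g in T cells 0.49, so these opposite signs depend on how cells were assigned.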

How the results depend on the processing

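No paired analysis was possible because each treatment has 1 library, which also means that no library could be left out. The number of gene and class pairs past 1.5-fold was 10; it lay between 7 and 14 under the other alternatives, and it was 5 with at least 200 UMIs required. In monocytes and macrophages, the ratios of Fcgr1, Fcgr4, Fcgr2b, Fcer1g and Fcgrt kept their sign under every alternative run, and that of Fcgr3, near 0, did not. Values outside the main counting interval were, under TMM, 0.45 for Fcgr1, -0.059 for Fcgr3, -0.22 for Fcgr2b and 0.041 for Fcer1g; after thinning, 0.32 for Fcgr4 and 0.13 for Fcer1g; and with classes from clusters, 0.56 for Fcgr4 and 0.12 for Fcer1g. The activating share was 57.6% in the anti-PD-1 and 52.4% in the isotype library after thinning, and 57.1% and 52.0% with clusters. Calls that changed sign were Fcgr1 (-0.25) and Fcer1g (-0.25) in cDC1, Fcer1g in T cells (0.49) and Fcgr2b in B cells (-0.21) with clusters, and Fcgr1 in migratory dendritic cells (-0.92) after thinning; the cause was not tested. Of 564 alternative log2 ratios over 57 pairs, 485 stayed within the main interval. Of the 10 calls, 9 were lost under at least 1 alternative, all but that of Fcgr4 in cDC1, and 8 pairs gained a call under at least 1, mostly with classes from clusters. Of 40 alternatives for the interferon-gamma bands, 16 lay outside the main interval, and of 48 for shares of cells, 45 did. Thinned to 2000 UMIs, Fcgr1 had a UMI in 30.5% of anti-PD-1 and 23.0% of isotype monocytes and macrophages, Fcgr2b alone was seen in 10.2% and 11.9%, and an activating gene without Fcgr2b in 21.4% and 17.9%, so shares hold for 1 depth only, with the same order of the libraries at both depths in these 3 shares. TMM shifted ratios by -0.03 to -0.10 by class. Classes from clusters held no intermediate class.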

Other observations

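The 1537 anti-PD-1 and 1509 isotype cells outside every gate carried Fcγ receptor transcripts in amounts between those of the gated classes. Fcgr1 had 102 CPM in the anti-PD-1 library and 80.8 CPM in the isotype library, Fcgr4 119 and 82.9 CPM, Fcgr3 594 and 606 CPM, and Fcgr2b 702 and 815 CPM. Their activating share was 53.7% (52.9 to 54.5) and 48.6% (47.8 to 49.4), and Fcer1g stood at 2843 and 2814 CPM. Their neutrophil markers summed to 6632 and 9916 CPM and their Lyz2 to 4651 and 4717 CPM.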
